A study of Mus musculus with 6 samples.

Results

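Chemokines are small secreted or membrane-anchored proteins that direct the movement of leukocytes, and chemokine receptors are the G protein-coupled receptors that read them. The genes described here are the rows of the deposited gene table that are annotated as protein coding and whose symbols name a chemokine (Ccl, Cxcl, Xcl, Cx3cl), a signalling chemokine receptor (Ccr, Cxcr, Xcr, Cx3cr) or an atypical chemokine receptor (Ackr). They are 59 of the 43346 genes in the table, 37 ligands and 22 receptors. RNA was sequenced from whole mouse livers in a dietary model of metabolic dysfunction-associated steatohepatitis. The experiment was designed to silence S100a11, which encodes a small EF-hand calcium sensor. The libraries labelled S100a11 shRNA 2, 3 and 2600 carry a knockdown label and came from livers given a short hairpin RNA (shRNA) against S100a11. The libraries labelled scrambled 28, 30 and 31 came from livers given a scrambled shRNA. All 6 livers share the FFC diet, and the series describes delivery with an adeno-associated virus of serotype 8 (AAV8). Livers without the diet or without an shRNA were not analysed here. The labels give no strain, sex, age or promoter of the construct, and do not say whether each sample is its own animal. The p-values thus reflect only the spread between these samples, which may be technical.

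In an inflamed liver, chemokines released by hepatocytes, stellate cells, endothelial cells and resident macrophages draw monocytes and other leukocytes out of the blood. CCL2 and its receptor CCR2 bring inflammatory monocytes into the fatty liver, CXCL1 and CXCL2 act on CXCR2 of neutrophils, and CX3CL1 (fractalkine) acts on CX3CR1 of monocytes and macrophages. Atypical receptors bind chemokines without the usual G protein signal and clear or store them.

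The targeted gene was checked first. S100a11 (ENSMUSG00000027907, chr3:93520488-93526287, mm10) stood at 16, 3.55 and 3.41 CPM (a count relative to its library's scaled total) in libraries labelled S100a11 shRNA 2, 3 and 2600, against 15.9, 22.9 and 30.0 CPM in scrambled libraries 28, 30 and 31. Library 2 was therefore level with scrambled library 28, while libraries 3 and 2600 were below every scrambled library. The means were 7.65 ± 7.23 and 22.9 ± 7.08 CPM (SD, n = 3 each), with a log2 change of -1.57 ± 0.56 (SE) and an edgeR adjusted p of 0.0951. By exact permutation (two-sided) p was 0.2, and 3 against 3 samples cannot go below 0.1. Without library 2 the log2 change was -2.75 and the edgeR adjusted p 0.000441. The directions below go by the labels, although library 2 held as much S100a11 as a scrambled library. Total counts were 53517400 to 69874200 per library labelled S100a11 shRNA and 57717100 to 78091800 per scrambled library. The noncoding RNA Gm26917 held 3.99% to 10.8% and 3.16% to 4.42% of the counts in the libraries labelled S100a11 shRNA and the scrambled libraries, with its highest share in library 2600. Hepatocyte markers summed to 40516 to 49599 CPM in libraries labelled S100a11 shRNA and 28451 to 34929 CPM in scrambled libraries.

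Of the 59 genes, 42 had enough counts to be tested, 25 ligands and 17 receptors. Expression of 10 of them fell in the libraries labelled S100a11 shRNA (edgeR quasi-likelihood test, Benjamini-Hochberg adjusted p below 0.05 over all 19352 tested genes), which is 23.8% of the tested members, where 8.28% of all tested genes were called lower. None was called higher, where 5.82% of all tested genes were. At an unadjusted edgeR p below 0.05, 16 members were lower and 2 higher. The share of all genes past that unadjusted p was not counted. Such counts, here and for the groups and lists below, thus cannot be set against all genes. DESeq2 called 13 members lower and 1 higher, where it called 11% and 8.38% of all tested genes. With limma voom 9 members were lower and 0 higher, where 8.35% and 5.47% of all tested genes were. The 10 were the ligands Cx3cl1, Cxcl14, Ccl2, Cxcl16, Cxcl1 and Ccl6 and the receptors Ccr2, Cxcr4, Cx3cr1 and Ccr7. They fell by factors of 1.75 to 3.83, and their mean levels in scrambled livers were 1.49 to 32.9 CPM.

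The log2 change was below 0 for 33 of 42 members, where it was below 0 for 46.2% of all tested genes. Its median was -0.58 over the tested members and 0.04 over all tested genes. Every library labelled S100a11 shRNA lay below every scrambled library for 17 tested members, of which 7 were not called. This held for 3509 (18.1%) of all tested genes, of which 1909 were not called. As 1602 genes were called lower, nearly every gene called lower separates in this way. For the called members below, the lack of overlap is therefore no further support. The opposite separation held for 2 tested members, Ackr4 and Ccl27a, where it held for 16.5% of all tested genes. Ligands and receptors moved alike in number, with 6 of 25 ligands and 4 of 17 receptors called lower and medians of -0.59 and -0.56. All 13 tested signalling receptors had a log2 change below 0, and 4 of them fell. For Ccr9 the change was only -0.0093 ± 0.34 (SE), and the signs of Ccr9 and Xcr1 turned in some fits with a library left out. By edgeR 0 of 4 atypical receptors were called, with 0 lower and 1 higher at an unadjusted p below 0.05, and DESeq2 called Ackr4 higher.

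**Figure D1:**
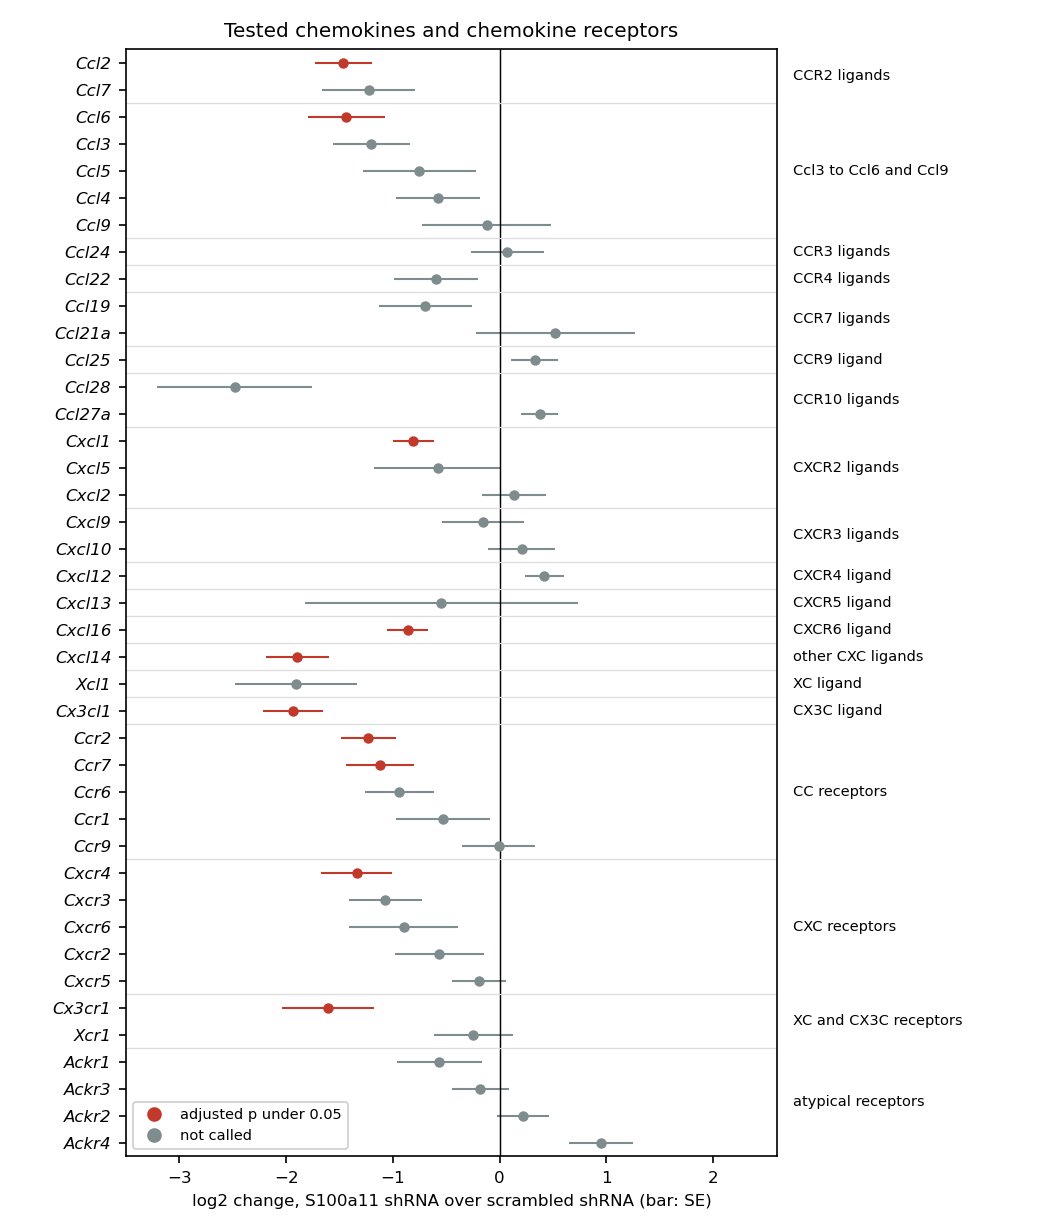
The log2 change (libraries labelled S100a11 shRNA over scrambled, with its standard error) of 41 tested chemokine and chemokine receptor genes, grouped by role. The values run from -2.48 for Ccl28 to 0.95 for Ackr4, and the 10 called members all lie below 0.

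Among the ligands, Cx3cl1 had the largest fall of the called members. This membrane-anchored chemokine can be shed, and it signals through CX3CR1. Cx3cl1 (chr8:94772009-94782423) stood at 3.95, 2.11 and 2.55 CPM in libraries labelled S100a11 shRNA 2, 3 and 2600, against 8.34, 11.003 and 13.8 CPM in scrambled libraries 28, 30 and 31. The groups did not overlap. The means of 2.87 ± 0.961 and 11.03 ± 2.71 CPM (SD, n = 3 each) differed 3.83-fold, a log2 change of -1.94 ± 0.28 (SE) with an edgeR adjusted p of 0.00555. Cx3cr1, its receptor on monocytes and tissue macrophages (chr9:119901616-120068283), stood at 10.8, 6.52 and 2.39 CPM, against 15.5, 23.2 and 21.6 CPM in scrambled livers. The highest value of the shRNA libraries, in library 2, lay below the lowest scrambled value. Its log2 change was -1.61 ± 0.43 (SE), a 3.05-fold fall with an edgeR adjusted p of 0.0405. Cx3cl1 passed the threshold with any single library left out. The Cx3cr1 call was lost without any of libraries 3, 28, 30 and 31, with edgeR adjusted p of 0.0653 to 0.133.

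The ratio of ligand to receptor overlapped between groups. Cx3cl1 over Cx3cr1 counts were 0.367, 0.324 and 1.07 in libraries labelled S100a11 shRNA, against 0.537, 0.474 and 0.636 in scrambled libraries. Since whole livers were sequenced, fewer cells of a type and less RNA per cell cannot be told apart for any gene here.

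The monocyte axis of CCL2 and CCR2 was lower at both ends. Ccl2, the main ligand of CCR2 (chr11:82035571-82037453), stood at 2.39, 1.68 and 1.68 CPM in libraries labelled S100a11 shRNA, against 6.61, 3.87 and 5.44 CPM in scrambled libraries, with no overlap. Ccl2 averaged 1.92 ± 0.407 and 5.31 ± 1.38 CPM (SD over 3 libraries each), a 2.76-fold fall with a log2 change of -1.46 ± 0.26 (SE) and an edgeR adjusted p of 0.0103. Ccr2, which marks inflammatory monocytes (chr9:124101950-124113557), stood at 14.6, 8.93 and 6.94 CPM, against 20.7, 25.2 and 25.7 CPM in scrambled livers. Here again library 2 was the highest of the shRNA libraries and still below every scrambled library. Ccr2 averaged 10.1 ± 3.96 and 23.9 ± 2.72 CPM, a log2 change of -1.23 ± 0.26 (SE) and an edgeR adjusted p of 0.0172. Ccl2 passed with any single library left out, although only at an edgeR adjusted p of 0.0499 without library 3, and the Ccr2 call was lost without library 3, 30 or 31, with edgeR adjusted p of 0.0571 to 0.0769.

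The other ligands of CCR2 were scarce. Ccl7 stood at 0.356, 0.144 and 0.136 CPM in libraries labelled S100a11 shRNA, against 0.550, 0.378 and 0.612 CPM in scrambled libraries, again without overlap. Its log2 change of -1.23 ± 0.44 (SE) was not called (edgeR adjusted p = 0.0989), and it was called without library 2 (log2 change -1.90, edgeR adjusted p = 0.0269). Ccl8 had 7, 0 and 3 counts against 9, 2 and 24 counts, and Ccl12, a mouse CCR2 ligand, had 10, 7 and 0 counts against 0, 2 and 5, too few for either to be tested. The ratios of Ccl2 to Ccr2 counts overlapped between groups.

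Of the 5 related ligands Ccl3, Ccl4, Ccl5, Ccl6 and Ccl9, all tested, Ccl6 was the called member. Ccl6 is a rodent chemokine made by macrophages and other myeloid cells (chr11:83587882-83593087). It stood at 11.2, 4.01 and 8.94 CPM in libraries labelled S100a11 shRNA, against 21.8, 15.3 and 28.1 CPM in scrambled libraries. The groups did not overlap, and library 3 was the lowest. Its means of 8.05 ± 3.67 and 21.7 ± 6.43 CPM differed 2.70-fold, a log2 change of -1.44 ± 0.36 (SE) with an edgeR adjusted p of 0.0318. The Ccl6 call was lost without any of libraries 3, 2600, 28, 30 and 31, with edgeR adjusted p of 0.0543 to 0.0991.

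Its neighbour and close relative Ccl9 varied most among the abundant members. Ccl9 stood at 62.1, 31.4 and 6.39 CPM in libraries labelled S100a11 shRNA, against 37.1, 26.0 and 45.7 CPM in scrambled libraries, so that the shRNA libraries held both its highest and its lowest value. The log2 change of -0.12 ± 0.60 (SE) was not called (edgeR adjusted p = 0.919). Ccl3, which acts on CCR1, stood at 0.635, 0.368 and 0.819 CPM, against 0.966, 1.35 and 1.77 CPM in scrambled livers. It did not overlap between groups but missed the threshold, with a log2 change of -1.20 ± 0.36 (SE) and an edgeR adjusted p of 0.0578, and DESeq2 called it lower. Ccl4, a close relative of Ccl3, stood at 0.511, 0.432 and 0.387 CPM, against 0.594, 0.392 and 0.982 CPM (edgeR adjusted p = 0.371). Ccl5, a ligand made by T cells among others, stood at 2.34, 0.719 and 0.500 CPM, against 1.56, 1.51 and 3.05 CPM. For Ccl5, library 2 was above 2 of the scrambled libraries while libraries 3 and 2600 were below all of them. With all libraries the log2 change of Ccl5 was -0.75 ± 0.53 (SE) (edgeR adjusted p = 0.383), and without library 2 it was -1.75 and passed (edgeR adjusted p = 0.0179).

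Ccr1, a receptor of several of these ligands on myeloid cells, stood at 1.55, 0.943 and 0.318 CPM in libraries labelled S100a11 shRNA, against 1.10, 1.44 and 1.65 CPM in scrambled libraries, with overlapping groups (log2 change -0.53 ± 0.44 (SE), edgeR adjusted p = 0.462).

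**Figure D2:**
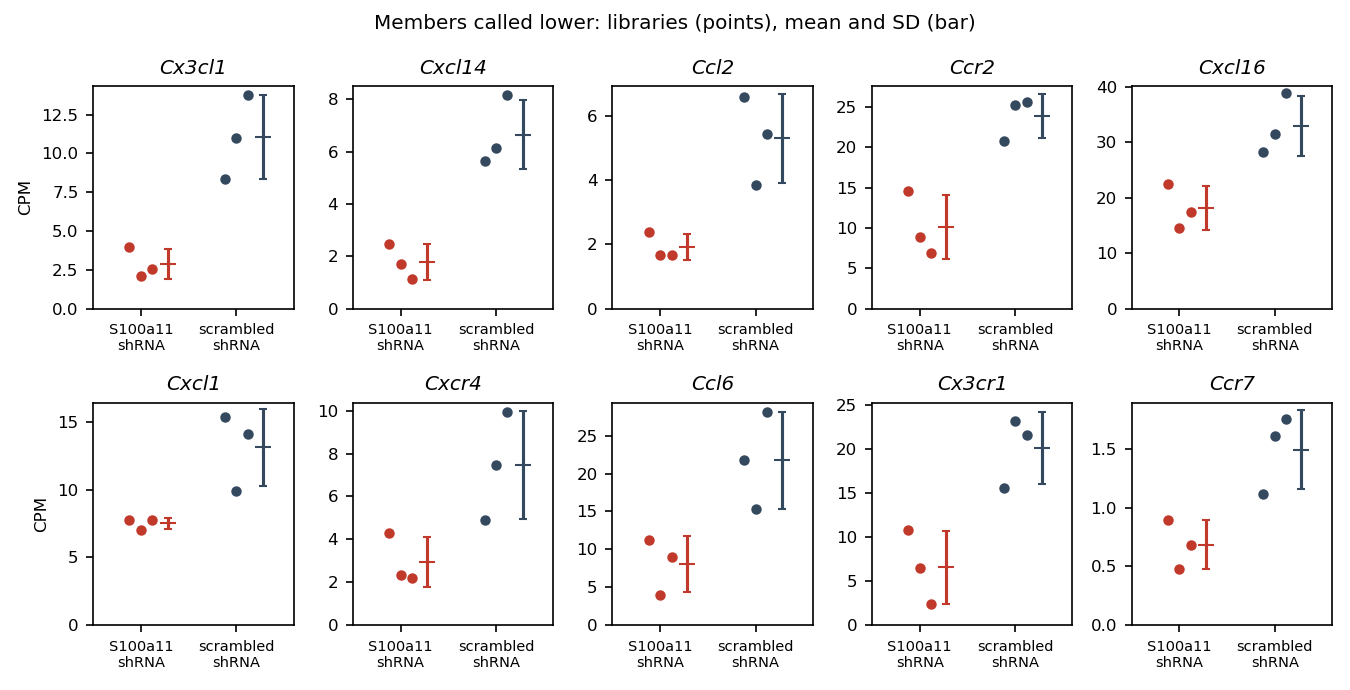
CPM of the 10 called members in each library, with S100a11 shRNA libraries 2, 3 and 2600 left of scrambled libraries 28, 30 and 31. In all 10 genes every library labelled S100a11 shRNA lies below every scrambled library, for example at 2.11 to 3.95 CPM against 8.34 to 13.8 CPM for Cx3cl1. Such separation holds for nearly every gene called lower and is no further support.

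Among the CXC ligands, 3 of 9 tested members fell, Cxcl14, Cxcl16 and Cxcl1. Cxcl14 is a chemokine of epithelial and stromal cells whose signalling receptor is debated (chr13:56288647-56296551). It stood at 2.48, 1.71 and 1.11 CPM in libraries labelled S100a11 shRNA, against 5.65, 6.15 and 8.15 CPM in scrambled libraries, with no overlap. Cxcl14 averaged 1.77 ± 0.684 and 6.65 ± 1.33 CPM (SD over 3 libraries each), a 3.72-fold fall with a log2 change of -1.89 ± 0.29 (SE) and an edgeR adjusted p of 0.00685. Its call held with any single library left out, at edgeR adjusted p of up to 0.0365.

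Cxcl16 is a transmembrane chemokine that also takes up oxidised lipoprotein and binds CXCR6 (chr11:70453983-70459984). It stood at 22.4, 14.5 and 17.4 CPM in libraries labelled S100a11 shRNA, against 28.3, 31.6 and 38.9 CPM in scrambled libraries. Its CPM values were the highest of the called members, and the groups did not overlap. Its means of 18.1 ± 3.99 and 32.9 ± 5.46 CPM differed 1.82-fold, a log2 change of -0.86 ± 0.19 (SE) with an edgeR adjusted p of 0.0225, which was lost without library 3, 2600, 30 or 31 (edgeR adjusted p of 0.0592 to 0.0819). Of the 3021 exon bases of Cxcl16 in the GENCODE M21 annotation, 552 (18.3%) lie over exons of Zmynd15 on the opposite strand. Zmynd15 stood at 17.2, 22.6 and 34.2 CPM, against 22.1, 22.7 and 22.1 CPM, with a log2 change of 0.14 (edgeR adjusted p = 0.722), and the strand setting of the counting is not given in the sources used here. Cxcr6, the receptor of CXCL16 on T and NK cells, stood at 0.418, 0.208 and 0.387 CPM in libraries labelled S100a11 shRNA, against 0.401, 0.363 and 1.06 CPM in scrambled libraries (log2 change -0.90 ± 0.51 (SE), edgeR adjusted p = 0.281).

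The CXCR2 ligands are encoded side by side on chromosome 5, and Cxcl1 and Cxcl2 are separated by 10783 bases. Their start regions are printed because Cxcl1 was called and Cxcl2 was not, while Cxcl1, Cxcl2 and Cxcl3 share a match to the NF-kappaB consensus. Sequences are from RefSeq on GRCm38.p6, 5′ to 3′ on the strand of the gene and ending at the base before the RefSeq start, and capitals mark the matches to the NF-kappaB consensus.
Cxcl1, chr5:90891125-90891244, plus strand: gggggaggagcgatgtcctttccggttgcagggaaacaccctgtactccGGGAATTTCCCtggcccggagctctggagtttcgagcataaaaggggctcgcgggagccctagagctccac
Cxcl2, chr5:90903779-90903898, plus strand: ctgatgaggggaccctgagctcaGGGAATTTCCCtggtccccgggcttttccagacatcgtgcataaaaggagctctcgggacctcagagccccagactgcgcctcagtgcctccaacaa
Cxcl3, chr5:90785981-90786100, plus strand: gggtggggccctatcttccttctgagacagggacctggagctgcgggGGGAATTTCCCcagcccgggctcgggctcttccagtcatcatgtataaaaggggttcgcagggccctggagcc
Cxcl10, a CXCR3 ligand that was not called, chr5:92348890-92349139, minus strand: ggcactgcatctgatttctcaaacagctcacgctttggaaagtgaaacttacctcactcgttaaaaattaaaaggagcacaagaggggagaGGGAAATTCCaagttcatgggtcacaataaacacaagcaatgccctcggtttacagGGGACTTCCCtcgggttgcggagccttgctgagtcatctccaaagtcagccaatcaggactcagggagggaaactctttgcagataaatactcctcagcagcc
The match begins 71 bases before the start of Cxcl1, 97 bases before that of Cxcl2 and 73 bases before that of Cxcl3, and in these genes it is read on both strands at positions that overlap. In Cxcl10 the matches begin 159 and 103 bases before the start.

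Cxcl1, a neutrophil attractant (chr5:90891241-90893115), stood at 7.75, 7.06 and 7.75 CPM in libraries labelled S100a11 shRNA, against 15.4, 9.91 and 14.1 CPM in scrambled libraries. The shRNA libraries were close to each other and all below the lowest scrambled library. The means of 7.52 ± 0.395 and 13.2 ± 2.87 CPM (SD, n = 3 each) differed 1.75-fold, a log2 change of -0.81 ± 0.19 (SE) with an edgeR adjusted p of 0.0273. That call was lost without library 3, 2600, 28 or 31 (edgeR adjusted p of 0.0509 to 0.0991). Cxcl2 stood at 0.589, 1.02 and 0.864 CPM, against 0.817, 0.640 and 0.785 CPM in scrambled livers, with overlapping groups and a log2 change of 0.14 ± 0.30 (SE) (edgeR adjusted p = 0.805). Cxcl5 stood at 0.620, 0.0799 and 0.227 CPM, against 0.624, 0.305 and 0.497 CPM (edgeR adjusted p = 0.561), and Cxcl3 had too few counts to be tested. The receptor Cxcr2, which marks neutrophils, stood at 0.527, 0.240 and 0.819 CPM, against 0.669, 0.640 and 0.935 CPM (log2 change -0.56 ± 0.42 (SE), edgeR adjusted p = 0.408). Its neighbour Cxcr1 was not tested at 20, 10 and 14 counts in libraries labelled S100a11 shRNA, against 4, 2 and 3 counts in scrambled libraries. With no filter on low counts Cxcr1 was called higher, with a log2 change of 2.62 ± 0.63 (SE) and an edgeR adjusted p of 0.0214.

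The NF-kappaB motif was found in the promoter of 1 called member and in promoters of members that were not called or not tested. RefSeq start sites were at hand for 45 members, and 9 of them (20%) held an NF-kappaB match in the 250 bases before the start, on either strand, where 4.46% of 27025 genes did. Among the called members with a promoter, 1 of 7 held it (Cxcl1), and among the tested members that were not called, 5 of 25 did (Ackr2, Ccl9, Ccr6, Cxcl10 and Cxcl2). The AP-1 motif TGANTCA was present in 0 of 7 and 3 of 25, and in 6 of 45 members (13.3%), where 7.82% of all genes held it. The interferon-stimulated response element (ISRE) was present in 1 of 7 (Cxcl14), in 2 of 25 (Ccl19 and Cxcl10) and in 3 of 45 members (6.67%), where 3.46% of all genes held it. These matches are letters in a window and not binding sites.

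The interferon-induced CXCR3 ligands were not called. Cxcl9 stood at 17.9, 8.90 and 6.03 CPM in libraries labelled S100a11 shRNA, against 9.53, 9.9996 and 17.0 CPM in scrambled libraries, and Cxcl10 stood at 6.24, 3.00 and 3.84 CPM, against 4.01, 2.602 and 4.74 CPM. For both, library 2 held the highest value of all 6 libraries. The log2 changes were -0.15 ± 0.38 and 0.21 ± 0.32 (SE), with edgeR adjusted p of 0.828 and 0.713. Their receptor Cxcr3, found on T and NK cells, stood at 0.573, 0.448 and 0.387 CPM, against 0.892, 0.727 and 1.35 CPM. Cxcr3 did not overlap between groups, missed the threshold at a log2 change of -1.07 ± 0.34 (SE) (edgeR adjusted p = 0.0703), and was called lower by DESeq2.

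Cxcl12 and its receptor Cxcr4 had log2 changes of opposite sign. Cxcr4, which holds leukocytes and progenitors at sources of CXCL12 (chr1:128588199-128592293), stood at 4.29, 2.33 and 2.18 CPM in libraries labelled S100a11 shRNA, against 4.92, 7.49 and 9.96 CPM in scrambled libraries. The groups did not overlap, though library 2 came near scrambled library 28. Cxcr4 averaged 2.94 ± 1.18 and 7.45 ± 2.52 CPM (SD, n = 3 each), a 2.53-fold fall with a log2 change of -1.34 ± 0.33 (SE) and an edgeR adjusted p of 0.0317, which was lost without library 3, 2600, 30 or 31 (edgeR adjusted p of 0.0816 to 0.113). Cxcl12, the most abundant member, stood at 376, 291 and 347 CPM, against 216, 230 and 311 CPM in scrambled livers. Library 3 lay below scrambled library 31, and the log2 change of 0.42 ± 0.18 (SE) was not called (edgeR adjusted p = 0.163, unadjusted p = 0.0475). The ratio of Cxcl12 to Cxcr4 counts was 87.6, 125 and 159 in libraries labelled S100a11 shRNA, against 44.0, 30.7 and 31.2 in scrambled libraries, without overlap. It is given without a test because it sets a called gene against one that was not called. Ackr3, the atypical receptor that takes up CXCL12, stood at 2.23, 1.45 and 1.21 CPM, against 1.75, 1.87 and 1.96 CPM (edgeR adjusted p = 0.704).

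Ccr7 was the called member with the lowest level. It guides dendritic cells and naive T cells towards CCL19 and CCL21 (chr11:99144196-99155077). Ccr7 stood at 0.898, 0.479 and 0.682 CPM in libraries labelled S100a11 shRNA, against 1.11, 1.61 and 1.76 CPM in scrambled libraries, without overlap. Its log2 change was -1.12 ± 0.32 (SE), a 2.18-fold fall at an edgeR adjusted p of 0.0477, just inside the threshold, and limma voom did not call it (adjusted p = 0.0528). The Ccr7 call was lost without any of libraries 3, 2600, 28, 30 and 31 (edgeR adjusted p of 0.0568 to 0.158). Its ligand Ccl19 stood at 0.418, 0.304 and 0.0910 CPM, against 0.476, 0.494 and 0.427 CPM (edgeR adjusted p = 0.325). Ccl21a, whose reads may be shared with its near-identical copy Ccl21b, stood at 1.94, 0.671 and 0.273 CPM, against 1.19, 0.116 and 0.774 CPM (edgeR adjusted p = 0.691).

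Several scarce members lay just outside the threshold. Ccl28, an epithelial CCR10 ligand, stood at 0.0465, 0 and 0.182 CPM in libraries labelled S100a11 shRNA, against 0.476, 0.407 and 0.254 CPM in scrambled libraries. The groups did not overlap, and its log2 change of -2.48 ± 0.73 (SE) was the lowest of the tested members at an edgeR adjusted p of 0.0516. It passed with DESeq2 and, by edgeR, without library 2600 (adjusted p = 0.0285). Xcl1, made by NK and T cells, stood at 0.108, 0.112 and 0.0227 CPM, against 0.193, 0.305 and 0.474 CPM (log2 change -1.91 ± 0.57 (SE), edgeR adjusted p = 0.0577), and 98 of its 523 exon bases lie over Gm20743 on the opposite strand. Ccr6, a receptor of B cells and a T cell subset, stood at 0.263, 0.304 and 0.205 CPM, against 0.476, 0.538 and 0.497 CPM, without overlap and with an edgeR adjusted p of 0.0899. Its ligand Ccl20 was not tested at 1, 0 and 0 counts, against 10, 6 and 10 counts, and with no filter it was called lower at an edgeR adjusted p of 0.0490.

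Other tested members were not called. Cxcr5, the B cell receptor for CXCL13, stood at 0.790, 0.687 and 0.682 CPM in libraries labelled S100a11 shRNA, against 0.832, 0.858 and 0.785 CPM in scrambled libraries (log2 change -0.19 ± 0.25 (SE)). Xcr1 of cross-presenting dendritic cells stood at 0.883, 0.831 and 0.864 CPM, against 1.47, 0.523 and 1.06 CPM (log2 change -0.25 ± 0.37 (SE)). Ccr9 had a log2 change of -0.0093 ± 0.34 (SE), and its ligand Ccl25 stood at 8.12, 14.0 and 11.4 CPM, against 9.54, 9.61 and 7.50 CPM (log2 change 0.33 ± 0.22 (SE), edgeR adjusted p = 0.354). Ccl22, a CCR4 ligand of dendritic cells and macrophages, stood at 0.821, 0.432 and 0.364 CPM, against 0.788, 0.567 and 1.12 CPM (edgeR adjusted p = 0.358). The eosinophil chemokine Ccl24 stood at 0.976, 0.623 and 0.728 CPM, against 1.04, 0.523 and 0.670 CPM (edgeR adjusted p = 0.915). Cxcl13, the ligand of CXCR5, was erratic at 0.0465, 0 and 1.25 CPM, against 0.104, 1.40 and 0.162 CPM (log2 change -0.55 ± 1.28 (SE)).

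Of the 4 atypical receptors, which clear or store chemokines, 0 were called by edgeR. Ackr4, which clears CCL19 and CCL21, stood at 1.72, 1.66 and 1.16 CPM in libraries labelled S100a11 shRNA, against 0.803, 0.552 and 0.993 CPM in scrambled libraries, without overlap. It had the highest log2 change of the tested members, 0.95 ± 0.30 (SE), which missed the threshold (edgeR adjusted p = 0.0670) and passed with DESeq2 (adjusted p = 0.0322). Of its 5380 exon bases 479 (8.90%) lie over Acad11 on the opposite strand, an acyl-CoA dehydrogenase gene that rose to 537 ± 56.6 CPM, against 295 ± 34.1 CPM in scrambled livers (SD, n = 3 each; log2 change 0.86 ± 0.16 (SE), edgeR adjusted p = 0.0117), and the part of Acad11 in the Ackr4 value was not tested. Ackr2, which degrades inflammatory CC chemokines, stood at 4.07, 4.51 and 7.12 CPM, against 3.79, 4.58 and 5.04 CPM (edgeR adjusted p = 0.601). Ackr1, the endothelial and erythroid Duffy receptor, stood at 1.55, 1.18 and 0.546 CPM, against 1.04, 1.66 and 2.23 CPM (edgeR adjusted p = 0.385), and shares 361 of 1405 exon bases (25.7%) with Cadm3 on its own strand. Ccl27a, which separated the groups upwards and has the near-identical copy Ccl27b, stood at 4.91, 5.56 and 6.05 CPM, against 4.19, 4.24 and 4.28 CPM (log2 change 0.37 ± 0.17 (SE), edgeR adjusted p = 0.186).

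The remaining 17 members had too few counts for the test. Their highest level in any library was 0.318 CPM, 11 of them never reached 10 counts, and Ccl27b and Cxcl15 had 0 counts in all 6 libraries. At these depths 3 counts, the limit that a count of 0 allows, correspond to 0.0347 to 0.0682 CPM per library (counting error only).

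Levels of different genes were compared per kilobase of the deposited gene length. That length equals the exon bases of GENCODE M21 for 33 of the 59 members. It is 953 against 1875 bases for Cxcl1 and 3742 against 4505 for Cx3cr1. The order of genes below therefore holds for the deposited lengths only. Cxcl12 was the highest ligand at 41.3 ± 5.28 CPM per kb in libraries labelled S100a11 shRNA and 30.9 ± 6.27 CPM per kb in scrambled libraries (SD, n = 3 each). In scrambled livers Cxcl1 (13.8 ± 3.02), Ccl6 (12.1 ± 3.58), Ccl9 (11.9 ± 3.23) and Cxcl16 (10.9 ± 1.81) followed within each other's spread. In libraries labelled S100a11 shRNA the same genes stood at 7.89 ± 0.415, 4.48 ± 2.05, 10.9 ± 9.16 and 5.997 ± 1.32 CPM per kb. Among the receptors Cx3cr1 stood at 1.75 ± 1.12 against 5.38 ± 1.09, Cxcr4 at 1.62 ± 0.650 against 4.12 ± 1.39 and Ccr2 at 1.59 ± 0.620 against 3.73 ± 0.426 CPM per kb, with spreads that overlap between the 3 receptors in the libraries labelled S100a11 shRNA, while in scrambled livers the SD ranges of Cx3cr1 and Ccr2 do not meet. Ackr2, the highest atypical receptor, stood at 1.88 ± 0.591 against 1.605 ± 0.226 CPM per kb.

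**Figure D3:**
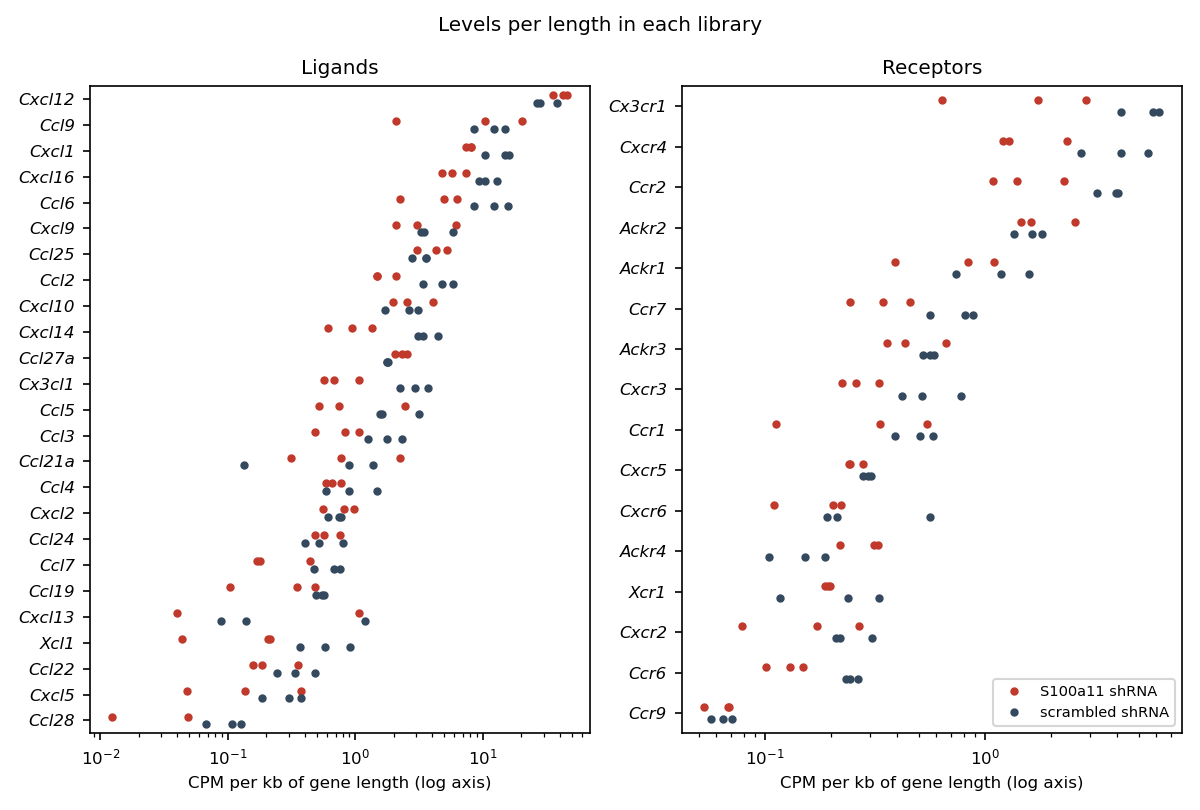
Levels in CPM per kilobase of deposited gene length on a log axis for 41 tested members in each library, libraries labelled S100a11 shRNA beside scrambled libraries, with values of 0 not drawn. Cxcl12 stands highest in both groups, at 41.3 and 30.9 CPM per kb on average.

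Called genes lay beside members that were not called. The genes of chemokines and their receptors form clusters, and in the cluster of Ccl5, Ccl9, Ccl6, Ccl3 and Ccl4 on chromosome 11 (83525778 to 83664683), 1 of 5 tested members was called, with log2 changes of -1.44 to -0.12. In the receptor cluster on chromosome 9 (123678439 to 124147699), Ccr2 was called of 6 tested members, with log2 changes of -1.23 to -0.0093. Cxcl1 over Cxcl2 counts were 13.2, 6.91 and 8.97 in libraries labelled S100a11 shRNA, against 18.8, 15.5 and 18.0 in scrambled libraries. Cx3cl1 over Ccl22, 20309 bases apart, gave 4.81, 4.89 and 7, against 10.6, 19.4 and 12.3. The groups did not overlap in these ratios, which are given without a test because each sets a called gene against a neighbour that was not called. Ccl6 over Ccl9, 9245 bases apart, gave 0.180, 0.128 and 1.40, against 0.588, 0.587 and 0.616, with library 2600 above and libraries 2 and 3 below every scrambled library.

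**Figure D4:**
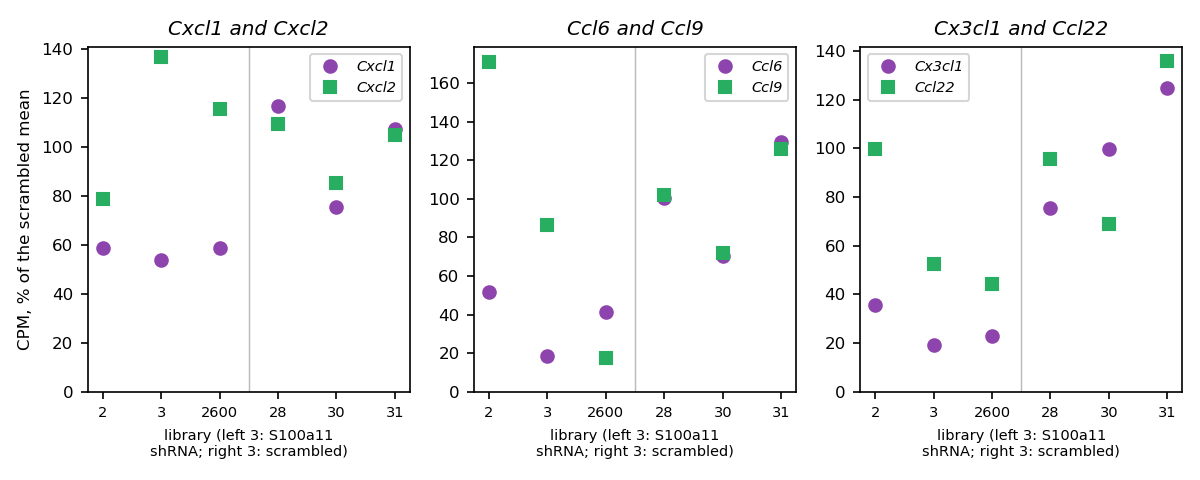
Levels of 3 pairs of neighbouring genes in each library, as a percentage of the scrambled mean of each gene, with libraries labelled S100a11 shRNA left of scrambled libraries. In each library labelled S100a11 shRNA, Cxcl1 and Cx3cl1 lie lower than their neighbours Cxcl2 and Ccl22, and Ccl9 spreads widely over the libraries labelled S100a11 shRNA.

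Library 2, in which S100a11 was least reduced, was also the least changed for the called members. Library 2 was the highest of the 3 libraries labelled S100a11 shRNA in 9 of the 10 called members, Cxcl1 being the exception, and in 31 of 42 tested members (73.8%). Over all genes called lower it was the highest in 51.4%, and over all tested genes in 37.8%. The median level of the called members was 55.5%, 31.9% and 30.5% of the scrambled mean in libraries 2, 3 and 2600, where S100a11 stood at 69.8%, 15.5% and 14.9%. Over all genes called lower the median was 44.9%, 36.25% and 39.4%. Whether the members follow S100a11 from library to library was not tested. Without library 2, 12 members were called lower, the 10 above with Ccl5 and Ccl7. Without library 3 the count was 3, without 2600 it was 6, and without scrambled library 28, 30 or 31 it was 6, 4 and 3. The share of all genes called lower in these fits was 12%, 2.96%, 6.29%, 5.18%, 2.54% and 3.47% in the same order of libraries. Cx3cl1, Cxcl14 and Ccl2 were called in every one of these fits.

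Markers of other cell types were counted beside the called members, where 8.28% of all tested genes were called lower and 5.82% higher. With a library left out these shares were 2.54% to 12% and 1.12% to 9.13%. Of 10 tested markers of monocyte-derived macrophages 6 fell (4 without library 3, 2600, 28, 30 or 31), and their summed level was 159 to 303 CPM in libraries labelled S100a11 shRNA and 461 to 652 CPM in scrambled libraries. Relative to the scrambled mean this sum was 54.9%, 28.8% and 49.0% in libraries 2, 3 and 2600. The list was Trem2, Gpnmb, Cd9, Itgax, Lyz2, Ly6c2, Cd68, Adgre1, Csf1r and Fcgr1, and how specific these genes are to such macrophages was not tested. Counts near the shares of all tested genes were found for Kupffer cells, T and NK cells and B and plasma cells. The median log2 changes of these lists were -0.08, -0.49 and -0.46 in that order. The B and plasma cell sum was 43.4%, 42.8% and 35.3% of the scrambled mean in libraries 2, 3 and 2600. Kupffer cell markers had 1 lower and 1 higher of 10 (0 to 1 lower and 1 to 3 higher with a library left out), with sums of 372 to 752 and 481 to 717 CPM. Dendritic cell markers had 2 of 9 lower (0 to 3 with a library left out), with sums of 132 to 208 and 243 to 355 CPM. Among lymphocyte markers, 1 of 11 T and NK cell genes was lower (0 to 4 with a library left out; sums of 6.19 to 9.31 and 8.53 to 13.1 CPM) and 1 of 8 B and plasma cell genes was lower (1 to 2 with a library left out; 15.3 to 18.8 and 30.9 to 62.2 CPM). Neutrophil markers had 2 of 6 lower (1 to 3 with a library left out; 11.4 to 21.5 and 21.1 to 24.2 CPM), with Ly6g and Retnlg too low to be tested.

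Among the other liver cells, 6 of 10 stellate cell markers were lower (2 without library 3, 2600, 28, 30 or 31), with sums of 579 to 776 CPM in libraries labelled S100a11 shRNA and 952 to 1250 CPM in scrambled libraries. Of 8 cholangiocyte markers 7 fell in the full comparison and with any single library left out, with sums of 157 to 180 and 511 to 629 CPM. Sinusoidal endothelial markers had 1 lower and 1 higher of 9 (0 to 1 lower and 0 to 2 higher with a library left out), with sums of 881 to 1236 and 905 to 997 CPM, and 3 of 8 hepatocyte markers were higher (1 without library 30). No listed marker was at 0 in all libraries. The part of these cell types in the chemokine results was not tested.

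**Figure D5:**
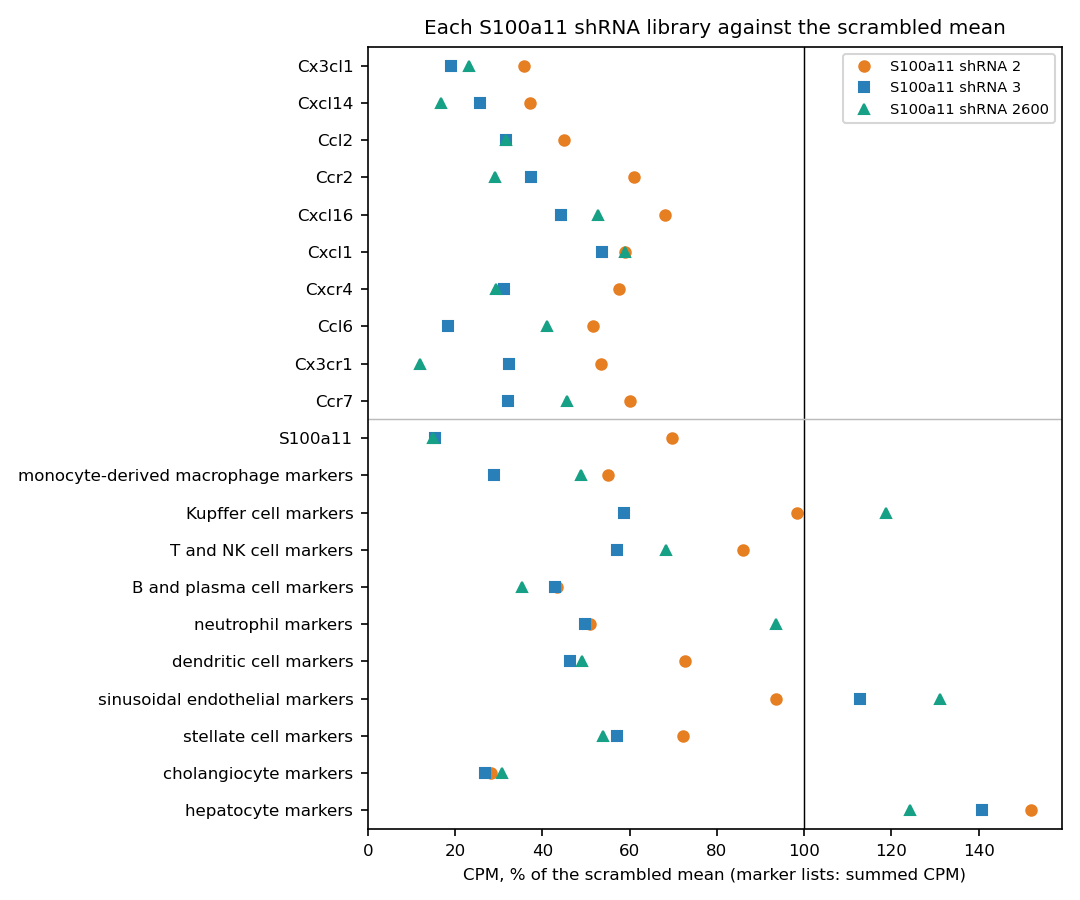
The 10 called members, S100a11 and the summed markers of 10 cell type lists in libraries labelled S100a11 shRNA 2, 3 and 2600, each as a percentage of its scrambled mean. S100a11 stands at 69.8% in library 2 against 15.5% and 14.9% in libraries 3 and 2600, and the macrophage markers stand at 54.9%, 28.8% and 49.0%.

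Genes that work with chemokine receptors inside the cell were lower in part. Of 25 tested genes of receptor signalling 8 fell (32%) and 0 were called higher, where 8.28% and 5.82% of all tested genes were. By edgeR 0 were higher at an unadjusted p below 0.05, and DESeq2 and limma voom called 0 higher. The median log2 change was -0.35. Elmo1, which with Dock2 couples receptors to Rac and cell movement, averaged 21.6 ± 2.58 CPM in libraries labelled S100a11 shRNA and 42.7 ± 5.01 CPM in scrambled libraries (log2 change -0.99, edgeR adjusted p = 0.0067). Pik3cg, the G protein-activated PI3-kinase subunit, had a log2 change of -0.83 (edgeR adjusted p = 0.0119), and Rgs2, a brake on G protein signalling, one of -1.20 (edgeR adjusted p = 0.0124). Rgs1 and Rgs19, which are also brakes, Dock2, Pik3r5 and Vav1 were called as well. The count was 3 without library 3, 28 or 31 and 2 without library 30, in fits that called 2.54% to 5.18% of all genes lower. Of 17 leukocyte adhesion genes 6 fell and 0 were called higher, against the same shares of 8.28% and 5.82% of all tested genes. At an unadjusted edgeR p below 0.05, 0 were higher, and the median log2 change was -0.44. Itgax, the integrin CD11c, averaged 13.4 ± 3.84 and 42.1 ± 2.54 CPM (log2 change -1.65, edgeR adjusted p = 0.0035), Itgam, which encodes CD11b, had a log2 change of -1.40 (edgeR adjusted p = 0.0079) and Selplg, the P-selectin ligand, one of -0.78 (edgeR adjusted p = 0.0376). The count was 3 without library 2600 (6.29% of all genes lower) and 2 without library 3, 28, 30 or 31 (2.54% to 5.18%). Itgax is also on the macrophage list.

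Of 11 tested genes of the chemokine system outside the naming rule 3 fell, where 8.28% of all tested genes were called lower. The median log2 change was -0.61. Pitpnm3, described in human cells as a CCL18 receptor, averaged 0.874 ± 0.0781 CPM in libraries labelled S100a11 shRNA and 3.31 ± 0.922 CPM in scrambled libraries (log2 change -1.93, edgeR adjusted p = 0.0053). The chemokine-like factor Cklf had a log2 change of -1.10 (edgeR adjusted p = 0.0173) and its relative Cmtm3 one of -0.67 (edgeR adjusted p = 0.0220). The count was 6 without library 2 (12% of all genes lower) and 1 without library 3, 28, 30 or 31 (2.54% to 5.18%). Of 22 tested signals and transcription factors known to induce chemokines 1 was called lower and 2 higher, a share near the 14.1% of all tested genes called in either direction. Cebpb, a transcription factor of hepatocytes and myeloid cells, rose to 77.0 ± 5.30 CPM in libraries labelled S100a11 shRNA, against 42.5 ± 10.8 CPM (log2 change 0.86, edgeR adjusted p = 0.0225), and the interferon regulator Irf7 rose to 66.4 ± 7.21 CPM, against 42.8 ± 6.14 CPM (edgeR adjusted p = 0.0286). Irf5, an interferon regulatory factor of myeloid cells, fell (log2 change -0.67, edgeR adjusted p = 0.0336). With scaling by library totals alone Cebpb and Irf7 were not called (edgeR adjusted p of 0.125 and 0.284) and 11 genes of the list were lower. The lower count of this list was 0 to 4 and the higher count 0 to 2 with a library left out, with none called without library 3 or 30. Of 15 genes of the heparan sulphate proteoglycans that hold chemokines at cell surfaces, 0 were called in either direction by edgeR, with 1 lower and 2 higher at an unadjusted p below 0.05, 2 higher by DESeq2 and a median log2 change of 0.25. Gpc4 (log2 change 0.41, edgeR adjusted p = 0.0659), Gpc1 (0.86, adjusted p = 0.0746) and Hspg2 (-0.38, adjusted p = 0.101) came first by p.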

How the data were processed

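Per the labels' protocols, liver RNA was extracted with Trizol and a column kit, treated with DNase depleted of ribosomal RNA and made into stranded libraries. The authors deposited raw counts per gene for 6 libraries, 3 per group, with no other sample columns (0), and a gene length. The genome build is mm10 per the submitters' processing notes. Which aligner and counter were used, and with which strand setting, is not given in the sources used here. All 37 mitochondrial genes held 0 counts.

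The count table was analysed with edgeR 4.0.16 under R 4.3.3. Filtering with filterByExpr (minimum count 10, minimum total 15) left 19352 of 43346 genes and at least 99.95% of each library's counts. Groups, taken from the sample titles, were compared with TMM factors (0.822 to 0.932 in libraries labelled S100a11 shRNA, 1.10 to 1.19 in scrambled libraries) and the quasi-likelihood F test without covariates, with Benjamini-Hochberg adjustment over all tested genes at 0.05. The common biological coefficient of variation was 0.223, and levels are CPM relative to the TMM-scaled total. S100a11 was also compared with an exact permutation test. Ratios of 7 pairs of members went through the same permutation test, where p cannot go below 0.1. No permutation p adjusted over the 7 pairs was below 0.233, and the ratios are given without it. The procedure was tested on simulated data.

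Members, gene lists and tests were chosen with earlier results of these data known. Named genes were S100a11, called members, tested members that share a role with them, their ligands or receptors, the most abundant member of other roles, and the first 3 genes by p of each pathway list. 1 tested member is counted but not reported here. Further members were named after their values were seen. Cell type lists were summarised by counts and sums. Exon overlaps came from GENCODE M21 and promoters from RefSeq GRCm38.p6, which held 45 of the 59 members. Alternatives were RLE, upper-quartile and total-count scaling, no filter, at least 1 CPM in 3 libraries, DESeq2 1.42.0, limma 3.58.1 voom, a robust prior, an adjusted p of 0.1, and each library left out. The legacy quasi-likelihood was added after seeing the data. Figures were drawn with matplotlib 3.10.9 (python 3.11.15, pandas 2.3.3, numpy 2.4.6).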

Additional observations from a re-analysis of the deposited data

How the results depend on the processing

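No paired analysis was possible because the replicate numbers are not shared between groups. The 10 members called lower became 17 with scaling by library totals alone (20.5% of all genes lower) and 16 at an adjusted p of 0.1 (12.3%). With a library left out they became 3 to 12 (2.54% to 12%). The 0 called higher became 1 with no filter (Cxcr1), where 3.74% of all genes were called higher. With DESeq2 and at an adjusted p of 0.1 it was 1 (Ackr4), where 8.38% and 9.4% of all genes were. With a library left out it was 0 to 1 (Cxcr1). Cx3cl1, Cxcl14 and Ccl2 were called lower under every alternative run, and Ccr7 was lost with limma voom and the legacy quasi-likelihood. Scaling by library totals moved the median log2 change of all tested genes to -0.32 and that of the members to -0.93, and all genes split into 3970 lower and 397 higher, against 1980 and 816 with upper-quartile factors and 1602 and 1126 with TMM. The sign turned, in members never called, with library totals for Ackr2 (-0.16), Ccl24 (-0.27), Ccl25 (-0.037), Cxcl10 (-0.13) and Cxcl2 (-0.22), and with upper-quartile factors for Ccl24 (-0.021). With a library left out the log2 change ran from -0.074 to 0.34 for Ackr2, -0.52 to 1.10 for Ccl21a, -0.18 to 0.38 for Ccl24, -0.97 to 0.37 for Ccl9, -0.10 to 0.077 for Ccr9, -0.18 to 0.43 for Cxcl10, -4.43 to 1.45 for Cxcl13, -0.069 to 0.31 for Cxcl2, -0.73 to 0.17 for Cxcl9 and -0.55 to 0.10 for Xcr1. Apart from the scaling itself and the smaller number of samples, the cause was not tested.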

Other observations

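Cxcl11, a CXCR3 ligand that the table annotates as a polymorphic pseudogene and that the naming rule therefore leaves out, stood at 9.88, 18.0 and 12.5 CPM in libraries labelled S100a11 shRNA 2, 3 and 2600, against 12.1, 10.5 and 9.69 CPM in scrambled libraries 28, 30 and 31. The groups overlapped, and the log2 change of 0.33 ± 0.23 (SE) was not called (edgeR adjusted p = 0.373). Library 3, the lowest or middle of the libraries labelled S100a11 shRNA for Cxcl9 and Cxcl10, held the highest Cxcl11 value.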
